A study of Homo sapiens with 2 samples.

Results

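The genes examined here are 34 targets of the transcription factor p53 and genes of the DNA damage response. They are listed by name in a rule that uses no measured value, but the list was chosen with earlier results of these data known. All 34 had a probe set with 1 gene symbol, out of 19775 genes measured. They were compared between Ca9-22 cells infected with an empty lentiviral vector and Ca9-22 cells infected with a PTHLH vector. Ca9-22 is an established human line of gingival squamous carcinoma origin, and PTHLH encodes a secreted ligand related to parathyroid hormone, whose effect on oral cancer cells the study examined. Both cultures shared the infection and 2 weeks of blasticidin, an antibiotic against which the vector protects, and each gave RNA for 1 array. The comparison rests on 1 cell line and 1 array per vector. The sources used here give neither the p53 status of the line nor, for these RNA samples, whether the cells were a pool or a single clone.

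p53 is held low in unstressed cells by MDM2 and MDM4, and it is freed and modified when DNA is damaged or growth signals are out of balance. It then binds DNA as a tetramer and turns on genes that stop the cell cycle, repair DNA, adjust metabolism or start apoptosis. Many of these genes also answer to other factors, such as stress-activated kinases and NF-kB, so their RNA is not a direct reading of p53. The level of p53 RNA itself is not analysed here.

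The arrays had medians of 19.5 (empty vector) and 19.4 (PTHLH) in arbitrary intensity units over 54675 probe sets. With 1 array per condition no difference has a replicate check, so folds are given without a p-value. As an internal measure of error, the differences read by the 2 brightest probe sets (groups of short oligonucleotides for 1 transcript) of a gene were compared. Over 5594 genes with both above the array medians, the SD of a single log2 difference came to 0.20, which covers probes and not cultures. Among 18 member genes with such a pair the SD was 0.15, and the 2 probe sets had the same sign in 15. Over the 5594 genes the sign was the same in 67.1%, so the direction of a single probe set is often not repeated. The squamous epithelial markers KRT5, KRT14, DSG3, CDH1 and SFN, the last also a member gene, all lay above the array medians. KRT6A, KRT17 and TP63 of the same marker list were not measured. The colon markers were checked because a description field names another line (CX-1). They lay between 9.40 and 45.4 with the empty vector, 3 of 6 above both medians (CDX1, VIL1 and CDX2). Of the fibroblast, leukocyte and endothelial markers, 4 of 11 lay above both medians (COL1A1, DCN, VWF and PECAM1). COL1A1 had 2437 and 1652 by 1 of its 5 probe sets and at most 102 by the others, and COL1A2 and COL3A1 were below the medians. The part of other cell types in the results was not tested.

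No member gene was 1.5-fold higher or 1.5-fold lower on the PTHLH array. Over all genes, 1.97% were at least 1.5-fold higher and 3.52% at least 1.5-fold lower, and over the 12982 genes above both array medians the shares were 2.50% and 4.36%. At such low shares few of 34 genes would pass, so the absence of calls does not set the list apart. In RNA from a whole culture, fewer cells that express a gene and less of its RNA per cell cannot be told apart. The median log2 difference of the 34 genes was 0.00, with 17 above 0 and 17 below, and the median over all genes was 0. Their differences ran from -0.41 (GADD45B) to 0.57 (TRIAP1), against -0.50 to 0.44 between percentiles 5 and 95 of all genes. Their SD was 0.27, and that of all genes 0.30.

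**Figure D1:**
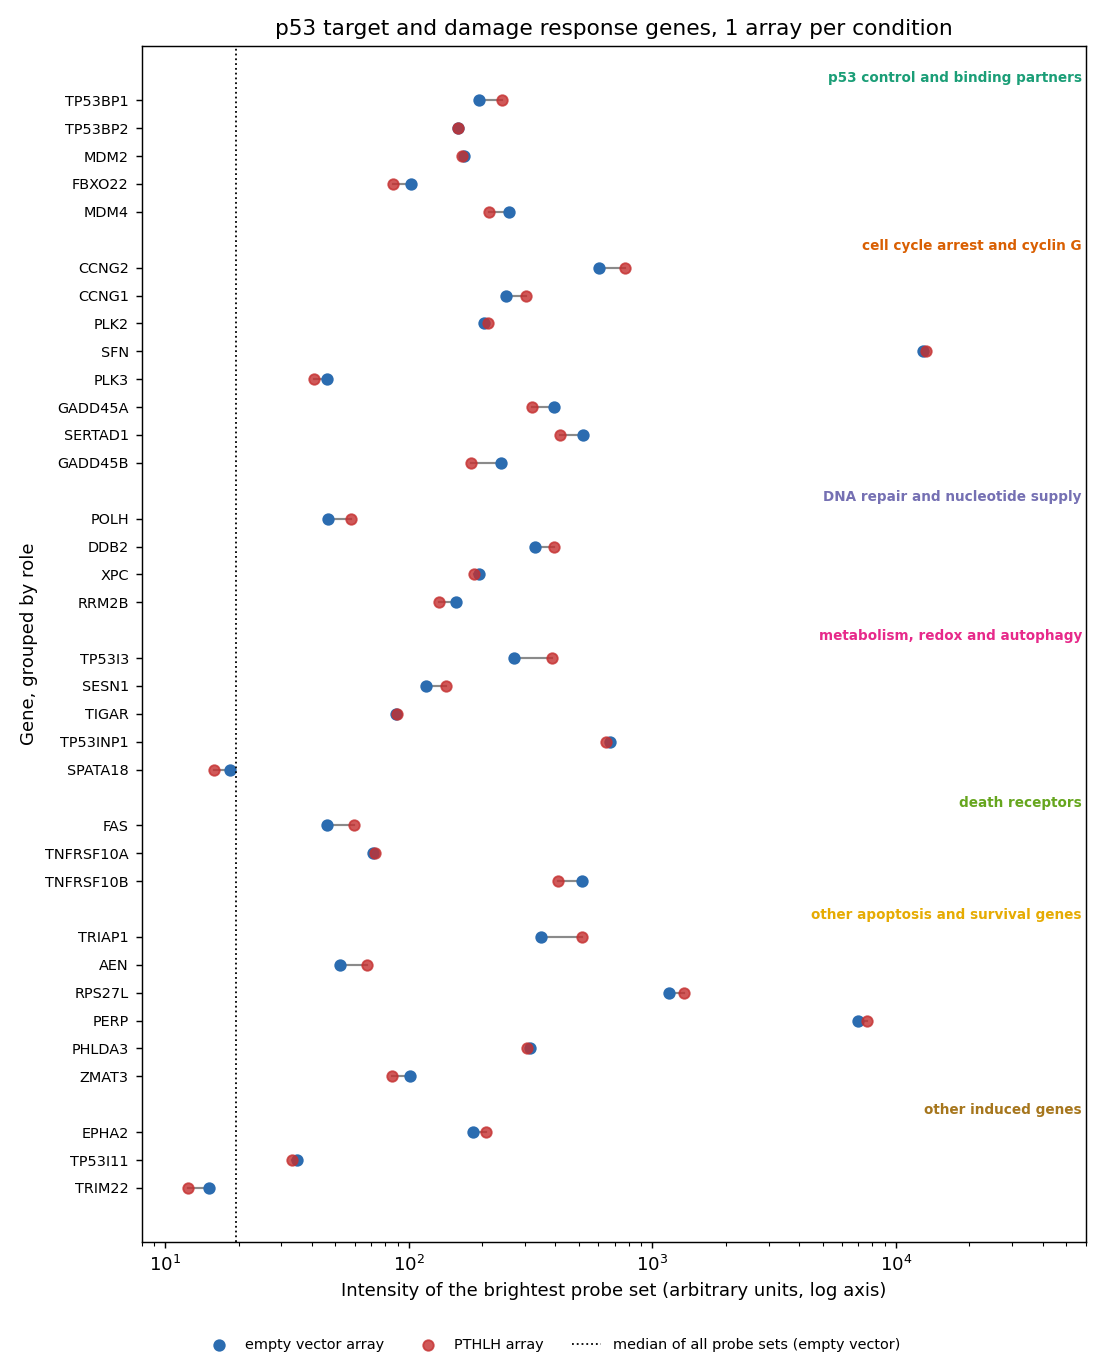
Brightest probe set of each of the 34 genes, grouped by role, with its intensity (arbitrary units) on a log axis. Each gene has a blue point for the empty vector and a red point for PTHLH, from a single array apiece, and the dotted line is the median of all probe sets; the widest gap upward is TRIAP1, from 347 to 515, and SPATA18 and TRIM22 lie below the median.

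A lower threshold of 1.2-fold, set after these values were seen, was passed upward by 9 of the 34 genes (26.5%) and downward by 6 (17.6%). The same threshold was passed by 15.0% of all genes upward and by 15.6% downward. Among genes above both medians the shares were 16.3% and 17.7%, against 9 (28.1%) and 5 (15.6%) of 32 member genes. The upward share lay above the background and the downward share near it, and neither was tested. A difference beyond 0.41, which is 2 SDs of the probe set measure, was seen in 3 member genes (TRIAP1, TP53I3 and GADD45B) and in 16.5% of genes above both medians, and 13 member genes lay within 1 SD of 0.

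**Figure D2:**
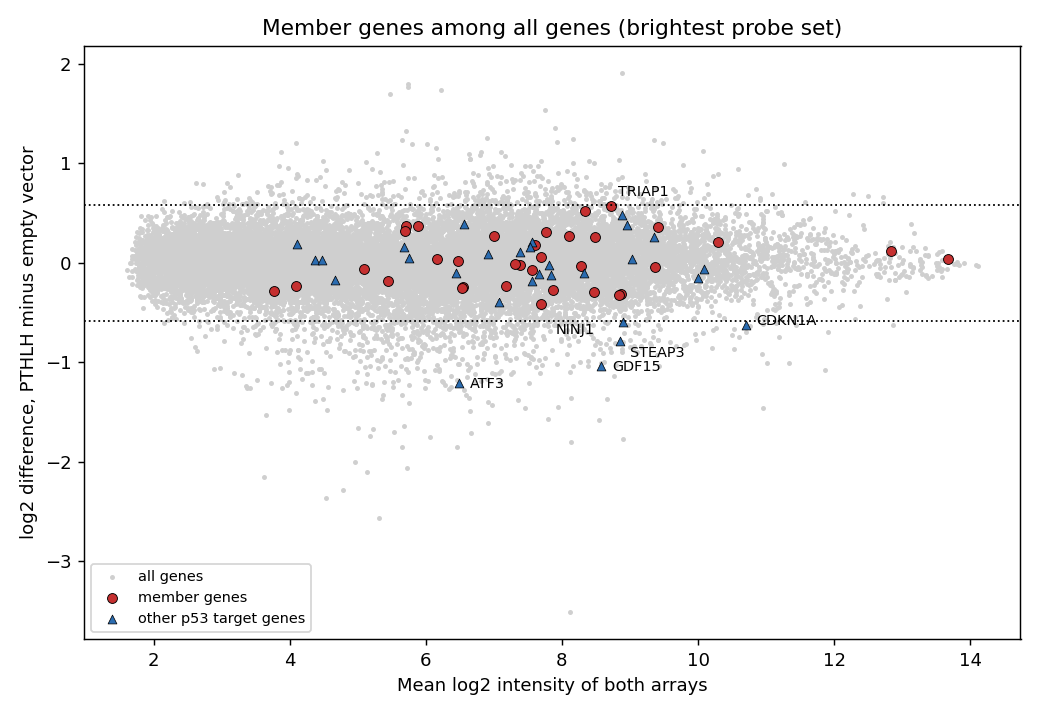
Log2 difference (PTHLH minus empty vector) against mean log2 intensity, 1 point per gene by its brightest probe set. Grey points are all 19775 genes, red circles the 34 member genes and blue triangles 29 other p53 targets, with 1.5-fold as dotted lines; all red circles lie between the lines, while 5 blue triangles lie below the lower one.

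Activated p53 binds a DNA element made of a pair of like sequences, and the member promoters that hold one near the start of transcription are shown here, to be read beside the values of those genes. RefSeq promoters of assembly GRCh38.p14, from 250 bases before to 50 after the start, were found for 26 of the 34 genes. Those without an entry were TP53INP1, GADD45A, RRM2B, TNFRSF10A, TNFRSF10B, TRIM22, PHLDA3 and FBXO22. The p53 half-site consensus (10 bases, its own reverse complement, so that a match counts for both strands) was matched exactly in 3 of the 26 (11.5%) and in 6.54% of 27305 promoters. A full site of 2 adjoining half-sites, 20 bases with at most 3 mismatches and the C and G of both cores kept, was found in 2 of the 26 (7.69%) and in 1.05% of all promoters. Each of the 2 full sites contains an exact half-site. The matches are given 5′ to 3′ with the site in capitals.

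AEN, chr15:88621301-88621330, + strand, full site with 2 mismatches: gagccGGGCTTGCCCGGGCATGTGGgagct
RPS27L, chr15:63157522-63157551, - strand, full site with 3 mismatches: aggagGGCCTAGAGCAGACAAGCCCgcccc
PLK2, chr5:58460204-58460223, - strand, exact half-site: ggacaAGACTTGCTTcccgg

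The full site of AEN begins 34 bases before the start, that of RPS27L 69 and the half-site of PLK2 132. The log2 differences of these 3 genes were 0.37, 0.20 and 0.06, all above 0 and all within 1.5-fold. A match is a description of letters and no sign that p53 was bound, and many p53 sites lie in introns or further upstream, outside this window.

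Of the 5 genes that control or bind p53, 1 was at least 1.2-fold higher (TP53BP1) and 1 lower (MDM4). Among all genes these shares were 15.0% and 15.6%. MDM2, the ubiquitin ligase that degrades p53 and is itself a p53 target, had an intensity of 168 with the empty vector and 165 with PTHLH, a log2 difference of -0.03. Its 3 probe sets above both medians lay between -0.04 and 0.05. MDM4, which blocks p53's activation domain, had 258 and 214 (-0.28), and its other probe set above both medians had -0.46, so both were lower. The damage mediator TP53BP1 went the other way, from 195 to 242 (0.31), with 0.12 by its second probe set. TP53BP2, which binds p53 and favours apoptosis, was level at 160 and 159 (-0.01, turning to above 0 when the arrays were centred on their brighter probe sets). FBXO22, the F-box subunit of a ubiquitin ligase that can mark p53 for degradation, had 102 and 86.2 (-0.24), and its 2 other probe sets above both medians had -0.18 and -0.15.

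Of the 8 genes grouped under cell cycle arrest and cyclin G, 2 were at least 1.2-fold higher and 3 lower. Among all genes these shares were 15.0% and 15.6%. The 8 genes were grouped by role and need not all halt the cycle. Both cyclin G genes were higher with PTHLH. CCNG2, an atypical cyclin that slows the cycle, had 602 and 771 (1.28-fold), and its other 2 probe sets above both medians had log2 differences of 0.36 and 0.31. CCNG1, which recruits a phosphatase to MDM2, had 251 and 303 (0.27) on its single probe set. Both GADD45 genes, stress sensors that act on CDK1 and on p38 and JNK signalling, were lower. GADD45B had 240 and 180 (-0.41), the lowest difference of the 34, and its other 3 probe sets, all above both medians, had -0.57, -0.41 and -0.07. GADD45A had 394 and 321 (-0.29) on its single probe set. SERTAD1, which binds CDK4 and E2F factors, had 521 and 419 (-0.31). PLK2, an early stress kinase that restrains the cycle, had 204 and 212 (0.06). Its relative PLK3 had 46.3 and 40.7 (-0.19), with -0.16 by its second probe set. SFN, the 14-3-3 sigma protein that keeps CDK1 out of the nucleus and is abundant in squamous epithelium, had 12880 and 13239 (0.04). This lies at 71.8% and 75.1% of the highest value on its array. Whether so bright a probe set can show a rise was not tested, but its dimmest probe set, with 2447 and 2331, had -0.07.

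Of the 4 genes of DNA repair and nucleotide supply, 2 lay above 0 and 2 below. POLH alone passed 1.2-fold, upward, as did 15.0% of all genes. DDB2, which recognises UV damage, had 329 and 393 (0.26, just under the 1.2-fold threshold), whereas its partner in damage recognition XPC had 194 and 185 (-0.07). POLH, the polymerase that copies past UV lesions, had 46.4 and 57.9 (0.32), but its other 4 probe sets above both medians ran from -0.14 to 0.45. RRM2B, the p53-induced subunit of ribonucleotide reductase, had 157 and 133.4 (-0.23).

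Of the 5 genes of metabolism, redox control and autophagy, 2 were at least 1.2-fold higher (TP53I3 and SESN1) and none lower. The shares of all genes were 15.0% and 15.6%, and so small a group was not tested against them. TP53I3, a quinone oxidoreductase that raises reactive oxygen, had 269 and 387 (1.44-fold, percentile 97.1 of all genes). It is the second highest member and has 1 probe set, so no second reading checks it. SESN1, a sestrin that restrains mTORC1, had 117 and 142 (1.21-fold). TIGAR, which lowers the glycolytic signal fructose-2,6-bisphosphate, was level at 88.6 and 89.4 (0.01). TP53INP1, a stress protein of autophagy and p53 phosphorylation, had 667 and 648 (-0.04), and 0.17 by its second probe set above both medians. SPATA18, which takes part in mitochondrial quality control, was dim, at 18.5 and 15.8 (-0.23). A second dim probe set of it had -1.06.

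The 3 death receptors shared no direction. FAS, the receptor for FAS ligand, had 46.1 and 59.5 (0.37), but its other probe set above both medians had -0.11, so the 2 disagreed in sign. Its 3 dim probe sets had 0.30 to 0.50. TNFRSF10B, the TRAIL receptor DR5, had 512 and 409 (-0.33), and its other 3 probe sets ran from -0.24 to -0.01, all below 0. TNFRSF10A, the TRAIL receptor DR4, had 71.2 and 72.8 (0.03), while its 2 dimmer probe sets, both above the medians, had 0.35 and 0.41. By every probe set TNFRSF10A was above 0 and TNFRSF10B below 0, though the values nearest 0 lay within the probe set SD.

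Of the 6 other apoptosis and survival genes, 2 were at least 1.2-fold higher (TRIAP1 and AEN) and none lower. The shares of all genes were 15.0% and 15.6%, and this small group was not tested against them either. TRIAP1, a small mitochondrial protein that counters apoptosis, had the highest difference of the 34, from 347 to 515 (1.48-fold, percentile 97.9 of all genes). Centring the arrays on their brighter probe sets brought it to 0.59, past 1.5-fold. TRIAP1 also has 1 probe set. AEN, an exonuclease that digests DNA in apoptosis, had 52.1 and 67.2 (1.29-fold). RPS27L, a ribosomal protein paralogue that binds MDM2, had 1166 and 1343 (1.15-fold), and 0.05 by its second probe set. PERP, a desmosomal and apoptosis protein abundant in stratified epithelium, had 6981 and 7589 (0.12), with 0.09 and 0.26 by its other 2 probe sets above both medians. PHLDA3, which blocks AKT at the membrane, had 314 and 307 (-0.03), though its nearly as bright second probe set had 0.31. ZMAT3, an RNA-binding p53 target, had 101 and 85.2 (-0.25), and all 5 of its probe sets lay below 0, from -0.61 to -0.06.

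The remaining 3 genes have other roles. EPHA2, a receptor tyrosine kinase, had 183 and 207 (0.18). The p53-inducible protein TP53I11 had 34.7 and 33.3 (-0.06), and its 2 other probe sets also lay below 0. TRIM22, an antiviral ubiquitin ligase, was lower but below both medians, with 15.1 and 12.4 (-0.29).

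**Figure D3:**
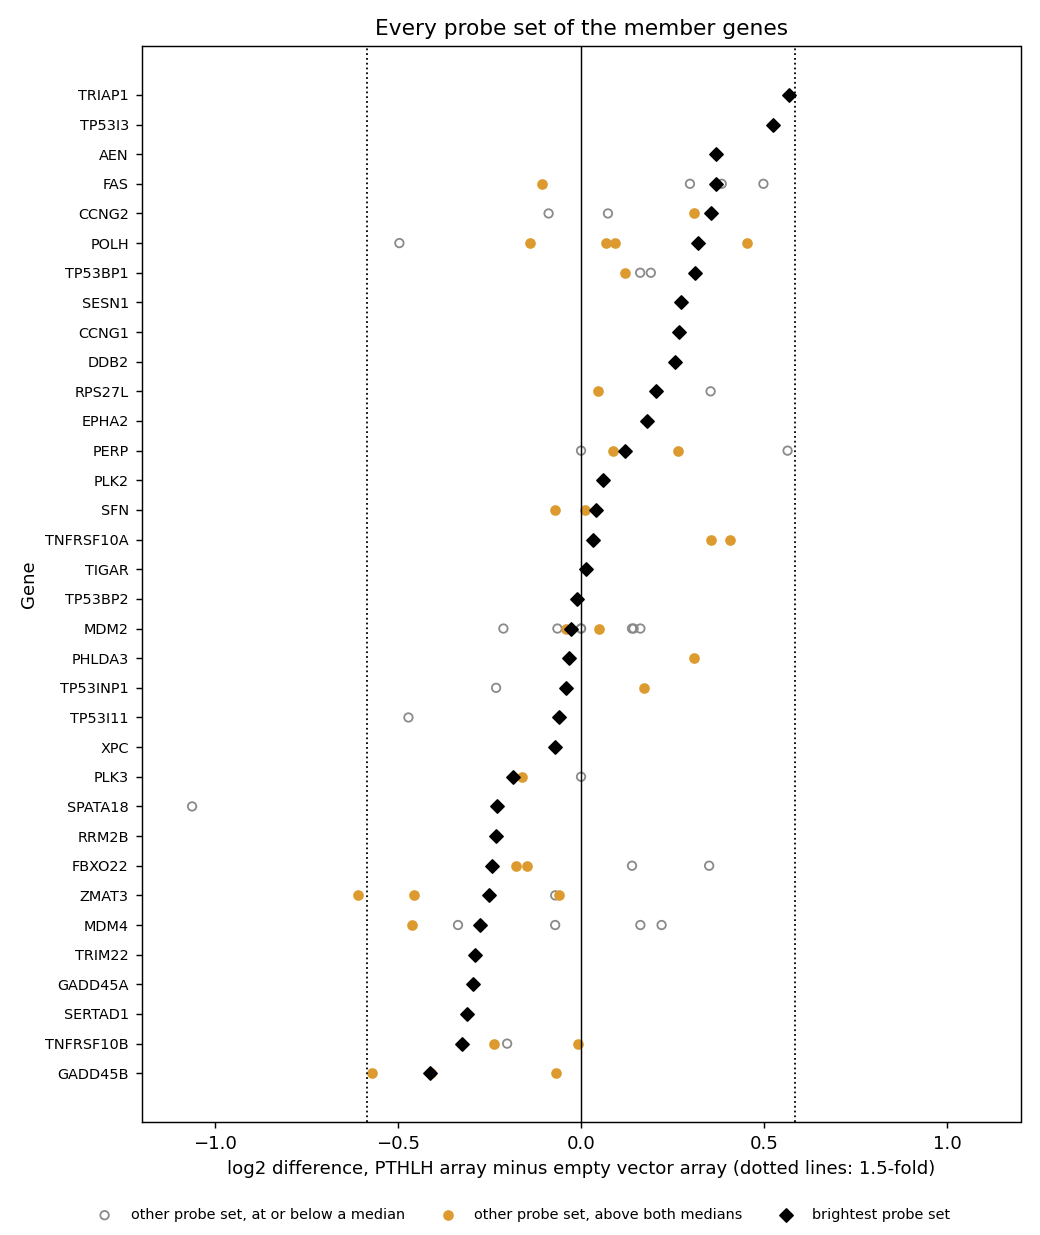
Log2 difference of every probe set of the 34 genes, ordered by the brightest (black diamonds). Orange points are other probe sets above both array medians, open points those at or below a median, and dotted lines mark 1.5-fold; of 96 probe sets 2 lie past a line, a dim one of SPATA18 at -1.06 and one of ZMAT3 at -0.61.

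Of the 96 probe sets of these genes, 64 lay above both medians. None was 1.5-fold higher, and 2 were 1.5-fold lower, of which 1 was above both medians (ZMAT3, with 90.3 and 59.2). By their brightest probe sets, 1.97% of all genes were higher and 3.52% lower by that fold. On 4 of the 96 both arrays held an identical value, beside 6.16% of all 54675 probe sets. The direction of a brightest probe set is thus a reading with limits, since 15 of the 34 genes had only 1 probe set and FAS, PHLDA3 and TP53INP1 had a second one of opposite sign.

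Other p53 targets were read from a list of 34 genes outside the group above, of which 29 were measured. None was at least 1.5-fold higher and 5 (ATF3, GDF15, STEAP3, CDKN1A and NINJ1) were at least 1.5-fold lower, beside the background of 3.52% lower. ATF3, a stress transcription factor, had 137 and 59.0 (-1.21). GDF15, a secreted stress cytokine, had 548 and 266 (-1.04), and STEAP3, an iron reductase, 605 and 350 (-0.79). CDKN1A, the p21 inhibitor of CDKs that is the best known p53 target, had 2065 and 1339 (-0.62), and NINJ1, a membrane protein of cell rupture, 588 and 389 (-0.60). The median of the list was -0.02, and 14 of the 29 genes lay above 0, so the direction was not shared across the list. At 1.2-fold, 3 of the 29 were higher and 6 lower, beside 15.0% and 15.6% of all genes. The 6 were the 5 above and DRAM1 (155 and 117, -0.40). BAX, which opens the mitochondrial membrane, had 175 and 203 (0.21), PCNA, the replication clamp, had 435 and 567 (0.38), and PPM1D, the phosphatase that switches the p53 response off, had 48.7 and 54.2 (0.15). ATF3 had -1.21 only by its brightest probe set, and the others had 0.01 and -0.01. The second probe set of STEAP3 had -0.54, the dim ones of GDF15 -0.20 and -0.39, and CDKN1A and NINJ1 had 1 each. When probe sets not specific to one transcript (suffix x or s) were dropped, 23 of the 29 genes were still measured and 1 of the 5 calls (NINJ1) was left. CDKN1A was then no longer measured, and the probe sets left for STEAP3, GDF15 and ATF3 had -0.54, -0.39 and 0.01. NINJ1 fell short of 1.5-fold when the arrays were centred. Full promoter sites of the kind described above were found in 3 of 23 of these genes (13%), beside 1.05% of all promoters. Exact half-sites were found in 0 of the 23, beside 6.54%. The 3 genes with a full site, GDF15, PMAIP1 and TP53AIP1, had log2 differences of -1.04, -0.11 and 0.03.

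Upstream of p53, 9 of 22 measured genes of DNA damage sensing and signalling were at least 1.2-fold higher and 2 lower, beside 15.0% and 15.6% of all genes. Their median log2 difference was 0.21, and none passed 1.5-fold. TOPBP1, which activates the ATR kinase, had 101 and 147 (1.45-fold), and MDC1, which holds repair factors at breaks, 413 and 577 (1.40-fold). NBN of the break-sensing MRN complex had 369 and 533 (1.45-fold). Its other probe sets above both medians had log2 differences of 0.23 and 0.23, under 1.2-fold. The other genes of that complex, MRE11 and RAD50, had 0.20 and -0.20. The 2 genes at least 1.2-fold lower were RAD9A, a subunit of the checkpoint clamp (267 and 189, -0.50), and the kinase CHEK1 (67.3 and 51.4, -0.39). The other probe sets of CHEK1 had 0.19 to 0.85. The sensor kinases themselves lay nearer to 0, with ATM at 0.13 and ATR at 0.21.

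Of 15 measured p53 family members, cofactors and regulators, 6 were at least 1.2-fold higher and none lower, beside 15.0% and 15.6% of all genes, with a median log2 difference of 0.24. The acetyltransferases that modify p53 were among the 6. CREBBP had 392 and 641 (1.64-fold, the only one past 1.5-fold, beside 1.97% of all genes). EP300 had 116 and 169 (1.46-fold) and KAT5 183 and 248 (1.35-fold). The other 2 probe sets of KAT5 had log2 differences of 0.66 and 0.52. The other probe sets above both medians had 0.47 and 0.12 for CREBBP and 0.25 for EP300, so CREBBP passed 1.5-fold and EP300 1.2-fold by the brightest probe set alone. The ubiquitin ligases RCHY1 (0.36) and COP1 (0.32), which like MDM2 can degrade p53, and the methyltransferase PRMT5 (0.36) made up the rest, and the second probe set of COP1 had 0.10. The p53 relative TP73 had 0.09.

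Genes that p53 lowers indirectly, through p21 and the DREAM repressor complex, had the highest median of these lists, 0.49. Of 15 measured, 14 were at least 1.2-fold higher, beside 15.0% of all genes, and CHEK1 alone was lower. CHEK1 was lower by its brightest probe set only, and its others, some of them dim, had 0.19 to 0.85. Past 1.5-fold were 4 of the 14 higher genes, beside 1.97% of all genes. The 4 were MCM5, a subunit of the replicative helicase (145 and 294, 2.03-fold), the cyclins CCNA2 (186 and 304, 0.71) and CCNB1 (648 and 1020, 0.65) and the spindle protein PRC1 (658 and 1034, 0.65). All 4 serve S phase or mitosis. CHEK1 is in this list and in that of damage sensing, and all lists were read from the same 2 arrays. The lists were chosen with earlier results of these data known. A share set beside that of all genes is therefore a description and not an independent test. From its microarray comparison the study had already reported CCNA2 as higher and CDKN1A as lower with PTHLH. It also measured CCNA2 mRNA in independent experiments and reported it as higher. Its pathway results also name CCNB1, CHEK1 and BIRC5 of this list.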

How the data were processed

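Total RNA of Ca9-22 cells was hybridised to 1 Affymetrix U133 array per condition. The deposited table holds linear intensities, with 1 value for each probe set on each array. How the authors corrected background, normalised and summarised them is not given in the sources used here. Both arrays had nearly equal medians, so no further normalisation was applied.

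Probe sets were named through the platform annotation, with symbols updated by gene identifier. Of 54675 probe sets, 41097 had 1 symbol and entered the gene counts, 1801 had several and 11777 are unnamed here. Each gene was represented by its brightest probe set. Differences are log2 PTHLH intensity less log2 empty vector intensity. The number of arrays limits the precision, and with 1 per condition no test was run. The 1.5-fold threshold is that of the study. All members are named. Of the context lists, genes past 1.5-fold were named by rule, and others were picked after their values were seen. Members and lists were chosen with earlier results of these data known. Alternatives changed the normalisation, the choice of probe set, the filter on dim probe sets, the floor and the threshold, and the 1.2-fold threshold was added after seeing the data. Counting was tested on simulated data. Python 3.11.15, pandas 2.3.3, numpy 2.4.6 and matplotlib 3.10.9 were used.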

Additional observations from a re-analysis of the deposited data

How the results depend on the processing

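The count of 0 member genes 1.5-fold higher was 1 (TRIAP1) after centring on the brighter probe sets and 9 at 1.2-fold. The count of 0 lower was 1 (SPATA18) by the median over probe sets, by the second brightest probe set (19 genes) and with a floor at percentile 40, 2 (with ZMAT3) by the probe set with the largest difference, and 6 at 1.2-fold. Of the other p53 targets, 5 were past 1.5-fold, against 3 by the median over probe sets, 2 at 2-fold and 9 at 1.2-fold. Without probe sets of suffix x or s the count was 1 (of 23 genes still measured). By the second brightest it was 1 of 19 genes still measured (TNFRSF10D, higher and dim), with none of the 5 left. CDKN1A and NINJ1, with 1 probe set each, were not measured there. The median of the other p53 targets, -0.02, was 0.031 by the median over probe sets, 0.15 by the largest difference and 0.035 without suffix x or s. The cause was not tested. The members' median lay between -0.01 and 0.02 in the 8 alternatives that could move it. Quantile normalization and the restriction to genes above both medians changed no count at 1.5-fold of the members or the other p53 targets. At 1.2-fold, quantile normalization gave 8 higher members and the restriction 5 lower ones. The log2 difference of each member past 1.5-fold was not followed, because none passed. No replicate could be left out with 1 array per condition. No paired analysis was possible because each condition has 1 sample.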

Other observations

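Relatives and partners of the member genes, a list of 40 drawn up after the members' values were seen, gave 39 measured genes with a median log2 difference of 0.09. Of these, 3 were at least 1.5-fold higher and 1 was at least 1.5-fold lower, beside 1.97% and 3.52% of all genes. RRM2, the S-phase partner that RRM2B can replace in ribonucleotide reductase, had an intensity of 436 with the empty vector and 812 with PTHLH (1.86-fold), and the shared large subunit RRM1 had 318 and 551 (1.73-fold), beside the -0.23 of RRM2B. The second probe set of RRM1 had a log2 difference of 0.20 and that of RRM2 0.72. SERTAD4, which lay close to the array medians, had 20.5 and 32.4 (1.58-fold), beside the -0.31 of SERTAD1 and the -0.29 of SERTAD2. PHLDA1, a relative of PHLDA3 induced by growth factors and stress, had 344 and 209 (-0.72), though its 6 probe sets ran from -0.72 to 0.17. CUL4B and CUL4A, cullins of the ubiquitin ligase that contains DDB2, had 275 and 405 (1.47-fold) and 268 and 346 (1.29-fold). However, probe sets of either reached below 0. The third GADD45 gene, GADD45G, had 57.4 and 49.6 (-0.21), so all 3 GADD45 genes lay below 0.

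Some deposited values repeat in their decimals. On 1976 probe sets (3.61%) both intensities ended within 0.0015 of 0.45 or 0.95, and 151 probe sets shared the same log2 difference of 0.08 to 5 decimals. The brightest probe sets of POLH and SERTAD1 were among those ending so, as was the second one of PHLDA3. In the context lists, the brightest probe sets of NINJ1, MCM5 and TOPBP1 were among them too. Where these endings come from was not tested.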
